A study of Mus musculus with 8 samples.

Results

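The rows described here are the 200 most abundant of the 1461 hairpin rows in a table of 5716 small RNA rows. They were chosen by their mean read count over all 8 libraries, so their abundance is the choice itself and is given as a description. Small RNA was sequenced from mesenchymal stromal cells (MSCs) of the pancreas (pMSCs, libraries 5 to 8) and of inguinal white adipose tissue (iwatMSCs, libraries 13 to 16). The cells came from untreated male C57BL/6J mice of 8 weeks. They were sorted as negative for CD45 and CD31 and positive for SCA1, pooled from 3 to 5 mice and grown for 4 days before RNA isolation. Every library is therefore a pool of cultured cells. Per the study's methods both tissues were taken from the same mice, but no label links a library to its animals, so the libraries were compared as unpaired. Nothing states that the 4 libraries of a tissue came from separate cultures, so p-values measure the spread between libraries, which may be partly technical. The study left out 1 library as an outlier, which its tabulated means identify as pMSCs library 7. The main fits below therefore use 7 libraries, and values with all 8 are added. In library 7 the deposited score that the authors call TPM is 1 for all 1023 hairpin rows with reads. Its total of 22507021 counted reads lay within the range of the other libraries.

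A miRNA gene is transcribed as a long primary transcript that is cut in the nucleus to a hairpin and in the cytoplasm to a short duplex. Usually 1 strand of the duplex, the guide, is loaded into an Argonaute protein and the other is degraded, and both strands are named by the arm of the hairpin from which they come (5p or 3p). Bases 2 to 8 of the mature strand, the seed, do most of the target recognition. Stromal cells are known for high levels of miR-21, let-7, miR-199 and miR-143.

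The hairpin rows carry names of mature arms, such as miR-21a-5p, and all 200 have a mature row of the same name. What put a read into the hairpin row rather than the mature row is stated neither in the labels nor in the methods. It therefore cannot be told whether these reads are precursor fragments or variants of the mature miRNA, and below they are called hairpin reads after the row type alone. The most abundant hairpin row belongs to miR-21a, whose hairpin lies on chromosome 11 (GRCm38.p6, chr11:86584067-86584158, minus strand) and overlaps an exon of Vmp1 in GENCODE M21. It is shown because this row alone held more reads than all other hairpin rows together in 7 of 8 libraries. Capitals mark miR-21a-5p, and all sequences here are from RefSeq, in which 180 of the 200 names were matched.
Mir21a: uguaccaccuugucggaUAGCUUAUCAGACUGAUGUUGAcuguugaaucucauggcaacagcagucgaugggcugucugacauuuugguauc

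Sequences of some of the members on which the comparison of the tissues turns are shown next, with the seed in capitals, since members of 1 seed, miR-10a-5p and miR-10b-5p, moved in opposite directions. miR-10a-5p (chr11:96317186-96317208, plus strand) and miR-10b-5p (chr2:74726074-74726096, plus strand, in introns of Hoxd3 and Hoxd4) differ by U12A, counted from the 5′ end of miR-10a-5p. The miR-196 sequences differ by A12C and lie in the Hox clusters on chromosomes 11, 15 and 6. The copy on chromosome 15 and miR-615-3p are in introns of Hoxc5, and miR-196b-5p is in an intron of Hoxa9.
miR-10a-5p: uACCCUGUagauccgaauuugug
miR-10b-5p: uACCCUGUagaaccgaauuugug
miR-196a-5p: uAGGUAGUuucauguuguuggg
miR-196b-5p: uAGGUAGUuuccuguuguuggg
miR-615-3p: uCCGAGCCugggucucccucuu
miR-31-5p: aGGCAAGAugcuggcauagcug
miR-200a-3p: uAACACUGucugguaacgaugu
miR-27b-3p: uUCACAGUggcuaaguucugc
miR-146a-5p: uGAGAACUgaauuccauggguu
miR-146b-5p: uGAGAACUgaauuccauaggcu

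Other members are shown because the row they were counted in bears on their values. miR-199a-3p and miR-199b-3p have the same mature sequence, and so do let-7a-1-3p and let-7c-2-3p. let-7k matches let-7b-5p over its 19 bases except for U9G, and let-7j matches let-7i-5p over 22 bases except for G8U. miR-3074-5p is the antisense of miR-24-3p: at both loci, on chromosomes 8 and 13, the mature sequences overlap by 20 bases on opposite strands. let-7f-1-3p and let-7f-2-3p, strands of let-7 hairpins opposite to the guide, were called between the tissues. Positions are counted from the 5′ end of the first name, and capitals again mark the seed.
miR-199a-3p and miR-199b-3p: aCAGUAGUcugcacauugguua
let-7a-1-3p and let-7c-2-3p: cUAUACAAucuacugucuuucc
let-7b-5p: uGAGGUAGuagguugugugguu
let-7k: uGAGGUAGgagguugugug
let-7i-5p: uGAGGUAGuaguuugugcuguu
let-7j: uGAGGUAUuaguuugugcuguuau
miR-24-3p: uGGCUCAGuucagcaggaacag
miR-3074-5p: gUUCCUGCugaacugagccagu
let-7f-1-3p: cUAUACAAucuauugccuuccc
let-7f-2-3p: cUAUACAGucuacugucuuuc

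The 8 libraries held 20793619 to 25824261 small RNA reads, of which hairpin rows took 38.3% to 44.3% mature rows 35.8% to 41.0% and rows of a further type, precursor, 2.80% to 5.34%. The 200 members took 99.3% to 99.6% of the hairpin reads. Hairpin reads made up 42.5% ± 0.59 of all reads in pMSCs (SD, n = 4) and 42.0% ± 2.62 in iwatMSCs (SD, n = 4), a difference smaller than the spread between libraries (two-sided exact permutation test, p = 0.857, where 0.0286 is the smallest possible). The ratio of summed hairpin to summed mature reads was 1.08 ± 0.0525 in pMSCs and 1.12 ± 0.110 in iwatMSCs (SD, n = 4 each, exact p = 0.514). iwatMSCs library 15 had the lowest share, at 38.3%, and the lowest ratio, at 0.960. In 14 members its hairpin CPM was also more than 2 times the highest of the other iwatMSCs libraries, compared with at most 2 members in any other library. Without library 15, 12 members were called higher and 10 lower by edgeR, in the comparison described further on. The share of all rows called in that fit was not taken, so these counts are a description alone. The called members were not all those of the main fit, since let-7f-1-3p, let-7f-2-3p, miR-1247-5p, miR-455-5p and miR-221-3p were no longer called. Without library 15 the share of hairpin reads was higher in iwatMSCs by 0.766 percentage points (the pMSCs minus iwatMSCs difference was -0.766, exact p = 0.343). The difference of the ratio was -0.0937 with an exact p of 0.0571, the smallest that 4 against 3 allows. With the reads of miR-21a-5p also left out, the difference of the share was 0.655 percentage points (exact p = 0.457). That of the ratio was then -0.0204 (exact p = 0.343).

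miR-21a-5p, which is known as a miRNA of proliferating and fibrogenic cells, took 48.0% to 60.2% of the hairpin reads and 18.4% to 25.95% of all reads of a library. In pMSCs its hairpin row held 261320, 225025, 234780 and 233998 CPM (read counts relative to the library size, which was scaled with TMM factors) in libraries 5 to 8. In iwatMSCs it held 221101, 270010, 172786 and 232816 CPM in libraries 13 to 16. The tissues overlapped, and the log2 fold change of pMSCs over iwatMSCs was 0.09 ± 0.17 (approximate standard error, SE, edgeR adjusted p = 0.855). The mature row of the same name held far fewer reads, with a mean of 432586 against 5298295 in the hairpin row.

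After it came let-7c-5p, miR-199a-3p, let-7b-5p, miR-24-3p, miR-199b-3p, miR-29a-3p, let-7a-5p, miR-92a-3p and miR-27a-3p, and with miR-21a-5p these 10 rows held 72.6% of the hairpin reads. The let-7 miRNAs restrain growth genes, miR-29 restrains collagens and other matrix genes, and miR-92a is a member of the growth-promoting miR-17-92 cluster. None of the 10 was called between the tissues (edgeR adjusted p from 0.0634 for miR-199a-3p to 0.988 for miR-29a-3p). At the lower end, the last rows inside the choice were miR-487b-3p, miR-193a-3p and miR-212-5p with means of 586, 565 and 557 reads. The first rows outside it were miR-485-5p, miR-132-3p and miR-494-3p with 552, 551 and 537 reads.

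**Figure D1:**
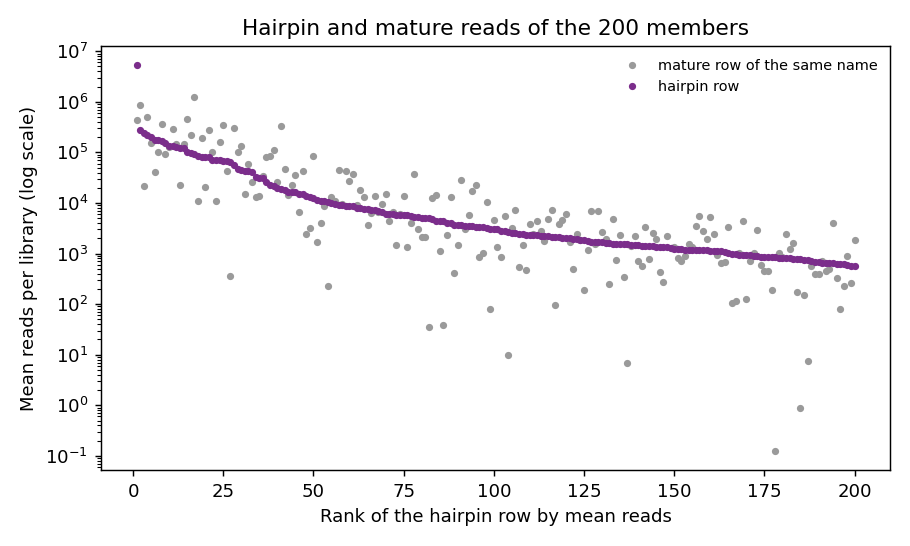
Mean reads per library (log scale) of the hairpin row (purple) and of the mature row of the same name (grey), for the 200 members in order of hairpin abundance. The hairpin row of miR-21a-5p stands apart with 5298295 reads, and mature rows of single members lie far above or far below their hairpin rows.

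Among the matched members there were 137 different seeds, and 64 members shared a seed with at least 1 other. The largest such group was the let-7 seed, with 10 members. The rows were also not simply those of the most abundant mature miRNAs: 156 of the 200 were among the 200 most abundant mature rows. By arm, 104 were named 5p, 89 were named 3p and 7 had no arm in their name.

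Between the tissues, 23 of the 200 hairpin rows were called at an adjusted p under 0.05 in the fit over all 4118 small RNA rows, 13 higher and 10 lower in pMSCs (edgeR quasi-likelihood test, two-sided). That was 11.5% of the members, against 2.94% of all rows tested (1.46% higher, 1.48% lower) and 4.21% of all hairpin rows tested (2.38% higher, 1.83% lower). DESeq2 called 26 members higher and 18 lower, beside 9.89% of all rows (4.98% higher, 4.91% lower). The members hold more reads than the other rows, and the part of depth in this share was not tested. The median log2 fold change of the members was 0.08, beside -0.17 for all rows and -0.02 for all hairpin rows tested. In 68 of the 200 members the libraries of the tissues did not overlap, compared with 14.0% of all rows tested, and with all 8 libraries in 57 members (28.5%), compared with 11.1%. With all 8 libraries, 25 members were called, the same 23 with miR-146b-5p and miR-155-5p in addition, beside 3.42% of all rows (1.81% higher, 1.61% lower).

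The choice by a mean over both tissues lets in rows that are abundant in 1 tissue alone. Ranked in each tissue separately, 9 members were among the 200 most abundant hairpin rows of pMSCs alone and 10 of iwatMSCs alone, and the others of both. Of the 23 called members, 13 were among the 200 in both tissues, 7 of them higher and 6 lower in pMSCs. The 6 that ranked so in pMSCs alone were miR-1247-5p, miR-145a-3p, miR-10a-3p, miR-375-3p, miR-146a-5p and miR-200a-3p, and the 4 that ranked so in iwatMSCs alone were miR-196a-5p, miR-196b-5p, miR-31-3p and miR-138-5p. Those 10 could hardly enter without a difference, and their calls are not support for one.

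**Figure D2:**
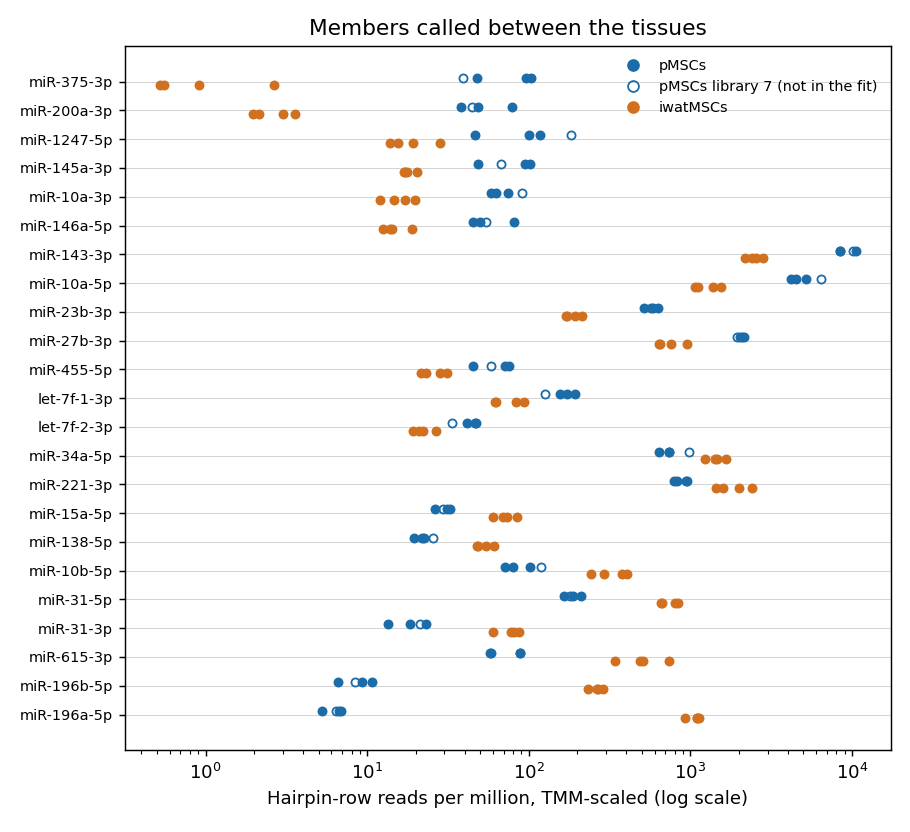
Hairpin-row CPM (log scale) of the 23 called members in each library, ordered by fold change, with pMSCs in blue and iwatMSCs in orange. The open symbol is pMSCs library 7, which was not in the fit, and in all 23 rows the 8 libraries separate by tissue.

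The members from the Hox clusters changed in both directions. miRNAs of these clusters are transcribed with the Hox genes that mark position along the body axis, and miR-196 targets Hox transcripts. All 6 such members were called: miR-196a-5p, miR-196b-5p, miR-615-3p and miR-10b-5p were lower in pMSCs, and both arms of miR-10a were higher. Of these, miR-196a-5p, miR-196b-5p and miR-10a-3p ranked among the 200 in 1 tissue alone, so their calls are not support for a difference. The list has 11 hairpin rows, and the others lay outside the members. The median log2 fold change of the 6 was -2.34.

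The hairpin row of miR-196a-5p held 5.29, 6.74, 6.41 and 6.93 CPM in pMSCs and 1133, 1092, 1097 and 930 CPM in iwatMSCs. This was the largest change among the called members, with a log2 fold change of -7.39 ± 0.22 (edgeR adjusted p = 1.27e-05), and the tissues lay far apart. miR-196b-5p had 6.57 to 10.7 CPM in pMSCs and 232 to 288 CPM in iwatMSCs (log2 fold change -4.89 ± 0.25, edgeR adjusted p = 0.000159). miR-615-3p, from the HoxC cluster, held 58.4, 88.5, 57.1 and 88.1 CPM in pMSCs and 740, 343, 509 and 489 CPM in iwatMSCs, so that its lowest iwatMSCs library was well above every pMSCs library (-2.73 ± 0.31, edgeR adjusted p = 0.00460).

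For miR-10a-5p, a HoxB miRNA, the order was the opposite. Its hairpin row held 4165, 5151, 6442 and 4508 CPM in pMSCs and 1374, 1551, 1066 and 1109 CPM in iwatMSCs (log2 fold change 1.85 ± 0.18, edgeR adjusted p = 0.00284). The other arm, miR-10a-3p, is the strand that is less often loaded, and it was higher as well (2.04 ± 0.21, edgeR adjusted p = 0.00340). miR-10b-5p, of the HoxD cluster and with the same seed, held 71.7, 102, 119 and 79.8 CPM in pMSCs and 375.8, 403, 242 and 293 CPM in iwatMSCs (-1.96 ± 0.24, edgeR adjusted p = 0.00663). Within pMSCs miR-10a-5p was the higher of the pair in every library, and this was also so in iwatMSCs.

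The other lower members were both arms of miR-31, with miR-138-5p, miR-15a-5p, miR-221-3p and miR-34a-5p. miR-31-5p, which is known to act on cell migration and invasion, held 165, 212, 180 and 187 CPM in pMSCs and 656, 797, 664 and 842 CPM in iwatMSCs (-1.98 ± 0.19, edgeR adjusted p = 0.00257). miR-31-3p had 13.4 to 23.2 and 60.3 to 86.6 CPM, respectively (-2.05 ± 0.26, edgeR adjusted p = 0.00663). Both arms thus shifted by about the same amount. miR-34a-5p, a target gene of p53, was lower by a smaller step, with 642 to 978 CPM against 1221 to 1660 CPM (-1.04 ± 0.15, edgeR adjusted p = 0.0123). miR-221-3p, which targets the cell cycle inhibitor p27, had 792 to 955 CPM against 1440 to 2409 CPM (-1.12 ± 0.21, edgeR adjusted p = 0.0354).

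miR-138-5p, known to restrain osteogenic differentiation, had a log2 fold change of -1.31 ± 0.18 (edgeR adjusted p = 0.00836), and miR-15a-5p, which targets Bcl2 and cyclins, one of -1.26 ± 0.19 (adjusted p = 0.0160). Among the 6 members of the miR-15, miR-16, miR-195 and miR-497 list, miR-15a-5p was the only one called by edgeR. In the miR-34 list it was 1 of 4 members, miR-34a-5p, and in the miR-221 and miR-222 list 1 of 2, miR-221-3p. miR-222-3p had a log2 fold change of -0.78.

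Among the higher members, miR-143-3p had the most reads. It is a miRNA of smooth muscle and stromal cells, and its hairpin row held 10522, 8442, 10096 and 8423 CPM in pMSCs and 2790, 2174, 2557 and 2394 CPM in iwatMSCs (log2 fold change 1.87 ± 0.14, edgeR adjusted p = 0.00152). miR-145a-3p, from the same primary transcript, was higher as well (2.17 ± 0.27, adjusted p = 0.00685). For miR-145a-5p the log2 fold change was 1.78 with an adjusted p of 0.0575 from edgeR. Its hairpin row held 161, 186, 101 and 163 CPM in pMSCs and 35.7, 34.1, 89.5 and 37.7 CPM in iwatMSCs, where library 15 was high. A difference between the arms was thus not shown. Among the 9 members of the mesenchymal list these were the 2 called, and its median log2 fold change was -0.37.

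miR-23b-3p and miR-27b-3p are cut from 1 transcript, and miR-27 is known to restrain adipocyte differentiation through Pparg. miR-23b-3p held 633, 573, 583 and 514 CPM in pMSCs and 214.2, 193, 170.0 and 173 CPM in iwatMSCs (1.61 ± 0.14, edgeR adjusted p = 0.00243). miR-27b-3p held 2080, 2024, 1953 and 2154 CPM in pMSCs and 952, 639.5, 759.6 and 651 CPM in iwatMSCs (1.47 ± 0.17, edgeR adjusted p = 0.00425). The paralogue miR-27a-3p, from another cluster, had a log2 fold change of 0.32 (edgeR adjusted p = 0.449), and all 5 members of this list had a positive one.

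miR-146a-5p, a restraint on Toll-like receptor signalling that NF-kappaB induces, held 80.7, 50.2, 54.3 and 44.9 CPM in pMSCs and 14.1, 18.9, 12.5 and 13.8 CPM in iwatMSCs (1.97 ± 0.26, edgeR adjusted p = 0.00819). miR-146b-5p, with the same seed and many more reads, held 4239, 4187, 5826 and 3457 CPM against 2877, 1540, 1662 and 1361 CPM. Its tissues did not overlap either, but it was called only with all 8 libraries (7 libraries: 1.09 ± 0.26, edgeR adjusted p = 0.0971).

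The hairpin rows of miR-375-3p and miR-200a-3p were low and nearly limited to pMSCs. miR-375 is a miRNA of islet cells and the miR-200 family is a set of epithelial miRNAs that repress Zeb1 and Zeb2. miR-375-3p held 95.5, 103, 39.2 and 48.0 CPM in pMSCs and 0.557, 2.64, 0.916 and 0.524 CPM in iwatMSCs (6.13 ± 0.70, edgeR adjusted p = 0.00442). miR-200a-3p held 78.8, 48.7, 44.4 and 38.1 CPM in pMSCs and 1.97, 3.0, 2.14 and 3.59 CPM in iwatMSCs (4.35 ± 0.36, edgeR adjusted p = 0.00199). The epithelial marker list has 9 hairpin rows, all with reads, which summed to 106.1 to 236 CPM in pMSCs and 3.47 to 7.52 CPM in iwatMSCs. Without miR-200a-3p the sums were 68.0 to 157 and 1.5 to 4.52 CPM. Of the 8 rows tested, 4 were higher in pMSCs by edgeR, miR-200a-3p among them, and the other 4 were not called. The 8 acinar rows, also all with reads, summed to 5.62 to 26.1 CPM and to 0 to 0.493 CPM, respectively, and 5 of them were called higher in pMSCs by edgeR.

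For the islet list, in which miR-7a-5p holds most reads, the sums of its 5 rows overlapped, with 2346 to 4365 CPM in pMSCs and 3490 to 4508 CPM in iwatMSCs. The 13 haematopoietic rows, of which miR-142b and miR-223-5p were at 0 in all libraries, summed to 90.2 to 137 CPM in pMSCs and 105 to 190 CPM in iwatMSCs. The 4 endothelial rows had 48.7 to 85.2 and 39.6 to 73.8 CPM. The 11 mesenchymal rows had 24912 to 28768 and 25346 to 32669 CPM. The part of other cell types in these results was not tested, and in bulk samples fewer cells of a type and less RNA per cell cannot be told apart.

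The remaining higher members were less abundant. miR-1247-5p held 46.7, 100.5, 182 and 117 CPM in pMSCs and 28.2, 19.1, 15.6 and 13.9 CPM in iwatMSCs (2.21 ± 0.38, edgeR adjusted p = 0.0280), with a wide spread within pMSCs. miR-455-5p, a miRNA of cartilage, had 45.2 to 75.7 CPM against 21.5 to 31.1 CPM (1.30 ± 0.24, adjusted p = 0.0354). let-7f-1-3p held 156, 193, 125.1 and 171 CPM against 83.0, 93.5, 62.8 and 62.2 CPM (1.20 ± 0.20, edgeR adjusted p = 0.0254), and let-7f-2-3p had 33.3 to 47.4 CPM against 19.3 to 26.6 CPM (1.01 ± 0.18, adjusted p = 0.0313). In all of these the tissues did not overlap over the 8 libraries.

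These were the 2 called among 19 members of the let-7 list, whose median log2 fold change was 0.44 and of which 16 had a positive one. In other lists no member was called by edgeR over 7 libraries, and none by edgeR over 8 except miR-155-5p, a miRNA of activated immune cells (789, 725, 697 and 627.5 CPM in pMSCs, 390.4, 463, 475 and 474 CPM in iwatMSCs). The 26 members on the list of the imprinted Dlk1-Dio3 region had log2 fold changes from -0.85 to 0.59 (median -0.13). The list did not hold miR-1247-5p, which was called and whose gene neighbours Dio3 on chromosome 12. The 9 members of the miR-17-92 family clusters lay between -0.39 and 0.16. The miR-29, miR-30, miR-26 and miR-181 lists had 5, 5, 2 and 4 members with medians of 0.01, -0.09, 0.53 and 0.32, and the 8 members of the miR-99, miR-100 and miR-125 list a median of -0.11. Of all 200 members, 62 had an unadjusted p under 0.05. The share of all rows at this threshold was not taken, so this count is a description alone.

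Hairpin rows of further miRNAs that the study names for 1 tissue lay outside the 200. miR-335-5p and miR-429-3p were higher in pMSCs (3.23 ± 0.49, edgeR adjusted p = 0.0160, and 5.79 ± 0.65, adjusted p = 0.00415), and miR-204-5p was lower (-3.22 ± 0.36, edgeR adjusted p = 0.00425). miR-211-5p, with at most 40 reads in a library, had -3.48 ± 0.75 (edgeR adjusted p = 0.0659).

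The mature rows of the same names stood in the same fit, and all but that of 1 member, miR-378d, passed the filter on low counts. Of these, 9 were higher and 10 lower in pMSCs (edgeR), 9.55% beside 3.78% of all mature rows tested (2.09% higher, 1.69% lower). They include members whose hairpin rows ranked among the 200 in 1 tissue alone, so this share is a description alone. In 19 members both rows were called, always in the same direction, and in none was the mature row called alone. In miR-145a-3p, miR-455-5p, let-7f-1-3p and let-7f-2-3p the hairpin row alone was called, and the log2 fold changes of their mature rows were 1.85, 1.10, 0.40 and 1.04. The mature rows of the last pair held at most 18 reads in any library, and a difference between row types was not shown for these 4.

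Over these members the fold changes of hairpin and mature rows had a Pearson r of 0.70 and a Spearman rho of 0.86, and 174 had the same sign. Both rows come from the same libraries, so this is a description. For 18 of the 19 members called in both, the log2 fold changes differed by at most 0.39. The exception was miR-200a-3p, with 4.35 in the hairpin row and 6.20 in the mature row, of which iwatMSCs held 0 to 15 reads.

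**Figure D3:**
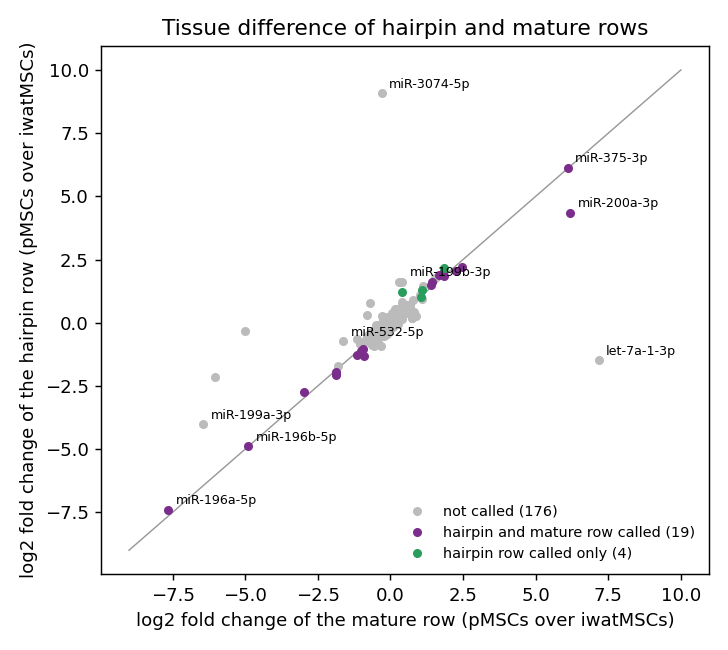
The log2 fold change (pMSCs over iwatMSCs, 7 libraries) of the hairpin row against that of the mature row for all members but miR-378d, with the line of equal change. Members with both rows called (purple) lie near the line except miR-200a-3p. Members with the hairpin row alone called (green) lie near it except let-7f-1-3p (1.20 in the hairpin and 0.40 in the mature row). Far from the line lie members that were not called (grey), such as miR-3074-5p and let-7a-1-3p.

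The number of hairpin reads per mature read ranged widely between members and little between libraries. Its median over the 200 was 0.956, with quartiles of 0.443 and 2.38, and 98 members had more hairpin than mature reads. By the means over 8 libraries the lowest were miR-222-3p with 0.0566 and miR-22-3p with 0.0772, followed by miR-532-5p, miR-98-5p and miR-196a-5p. miR-532-5p was low in 5 libraries only, and its ratio was 10.3, 10.4 and 5.89 in pMSCs libraries 5, 7 and 8. The SD of the mean log2 ratio between members was 2.27, whereas the median SD between libraries of a tissue was 0.16. In 13 members the latter was over 1.

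The highest ratios belonged to miR-378d, let-7j, let-7f-1-3p, let-7b-3p and let-7k. miR-378d had 3 to 1468 hairpin reads and 1 mature read in all 8 libraries together. let-7j, which differs from let-7i-5p within the seed, had 594 or more hairpin reads in each library and at most 2 mature reads. let-7k had 37515 to 85617 hairpin reads and 151 to 612 mature reads. let-7b-5p, from which let-7k differs by 1 base, had 0.430 hairpin reads per mature read, and let-7i-5p had 0.225.

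For miR-21a-5p the ratio was 15.4, 14.3, 13.9 and 12.4 in pMSCs and 9.86, 10.5, 11.9 and 12.05 in iwatMSCs. For miR-22-3p, the mature row with the most reads among the members, it was at most 0.0900 in any library. These abundant miRNAs thus had opposite splits in the same libraries. Members of 1 seed differed as well, from 0.143 (miR-98-5p) to 183 (let-7k) within the let-7 seed, and miR-221-3p had 0.937 where miR-222-3p had 0.0566.

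Where both arms of a hairpin were members (37 hairpins), the arm with fewer reads had the higher ratio in 25. The median ratio was 0.464 for the arm with more reads and 1.69 for the other. Both arms had to be members by their hairpin reads, so an arm with few reads could enter only if many of them were hairpin reads. The choice thus favours a higher ratio in that arm, and these values are a description alone. By name, the median was 1.26 for 3p and 0.765 for 5p members. Across members the ratio fell with the mature reads (Spearman rho -0.65) and hardly with the hairpin reads that set the choice (rho -0.12). The mature reads are part of the ratio, so this is a description alone.

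Between the tissues, the ratio was tested in all members but 5 (let-7f-1-3p, let-7f-2-3p, let-7b-3p, let-7j and miR-378d), whose mean mature reads were below 10. No member was called (limma adjusted p of 0.0635 at the lowest), where 31 had an unadjusted p under 0.05, beside 0.00% called and 13.9% at an unadjusted p under 0.05 of all 505 pairs. An edgeR interaction test also called 0, with 27 members at an unadjusted p under 0.05, beside 64 of all pairs at that threshold. The median log2 difference of the members was 0.02, as it was for all pairs.

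With all 8 libraries 5 members were called, beside 0.990% of all pairs (14.5% at an unadjusted p under 0.05). miR-22-3p had 0.0702, 0.0681, 0.0683 and 0.0689 hairpin reads per mature read in pMSCs and 0.0900, 0.0841, 0.0885 and 0.0857 in iwatMSCs (log2 difference -0.34 ± 0.04, limma adjusted p = 0.0285). miR-674-5p had 0.287, 0.269, 0.320 and 0.260 against 0.477, 0.384, 0.424 and 0.387 (-0.56 ± 0.10, limma adjusted p = 0.0478). In miR-497a-5p the ratio was lower in pMSCs too (-0.58 ± 0.10), and in miR-218-5p (0.51 ± 0.09) and miR-154-5p (0.43 ± 0.08) it was higher, with a limma adjusted p of 0.0478 each. These differences were small beside those between members, and the tissues did not overlap in any of the 5.

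**Figure D4:**
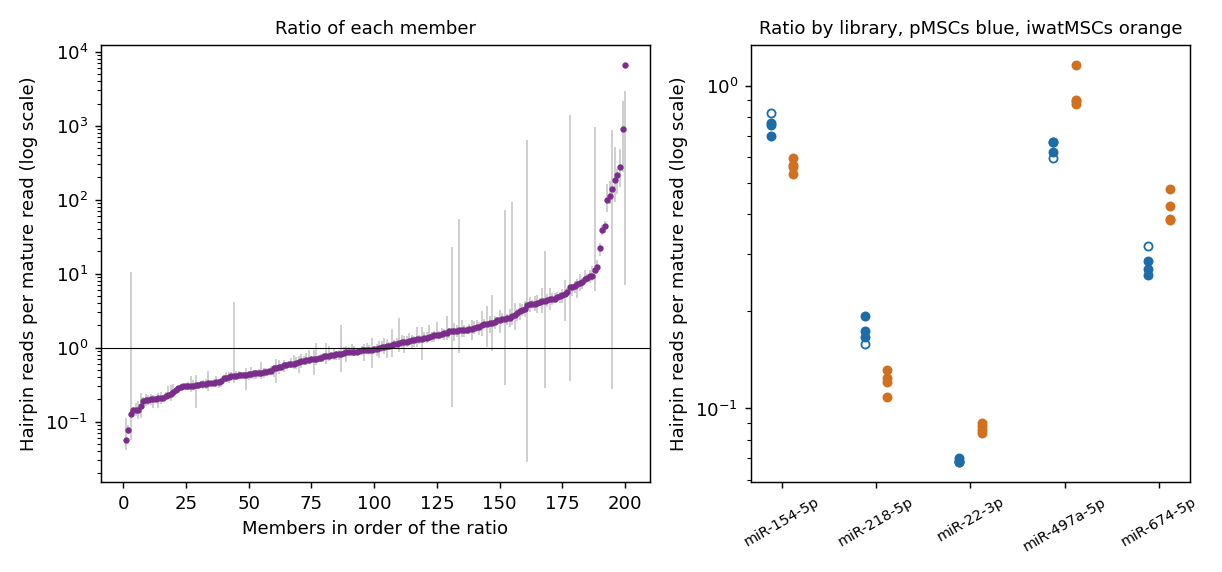
Left, hairpin reads per mature read (log scale) of the 200 members in order of their ratio, with the point from the 8-library means and the grey line from the lowest to the highest library (0.5 read added to each count). Right, the ratio by library for the 5 members called with all 8 libraries, where pMSCs (blue, library 7 open) and iwatMSCs (orange) do not overlap and the steps are small beside the range on the left.

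Of the 13 members whose ratio varied most within a tissue, 4 were names that share their mature sequence. miR-199a-3p held 23702, 21051, 337382 and 22414 hairpin reads in pMSCs and 534253, 493087, 37133 and 447266 in iwatMSCs. miR-199b-3p, of identical sequence, held 275476, 338650, 23806 and 349908 and then 14040, 20891, 363777 and 20514. In each library 1 of the names thus held nearly all reads. The mature rows switched as well but in other libraries: miR-199a-3p held 98.8% of the mature reads of the pair in each of libraries 13 and 14 and at most 1.71% in the other 6.

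Summed under 1 name, the pair had 299178 to 372322 hairpin reads in pMSCs and 400910 to 548293 in iwatMSCs, with a log2 fold change of -0.46 ± 0.14 (edgeR adjusted p = 0.227). The single names had -4.02 ± 0.86 (adjusted p = 0.0634) and 1.62 ± 1.17 (adjusted p = 0.547). The miR-199 family is highly expressed in mesenchymal cells, and neither single name gives its level.

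let-7a-1-3p and let-7c-2-3p behaved alike. let-7a-1-3p held 12.03%, 5.47%, 89.6% and 9.13% of the hairpin reads of the pair in pMSCs and 2.40%, 10.5%, 90.5% and 99.2% in iwatMSCs, and let-7c-2-3p held most of the rest. Their sums were 5280, 6877, 5230 and 7466 in pMSCs and 3909, 4141, 2955 and 3506 in iwatMSCs. The summed hairpin row was higher in pMSCs (0.87 ± 0.17, edgeR adjusted p = 0.0435), and neither single name was called.

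**Figure D5:**
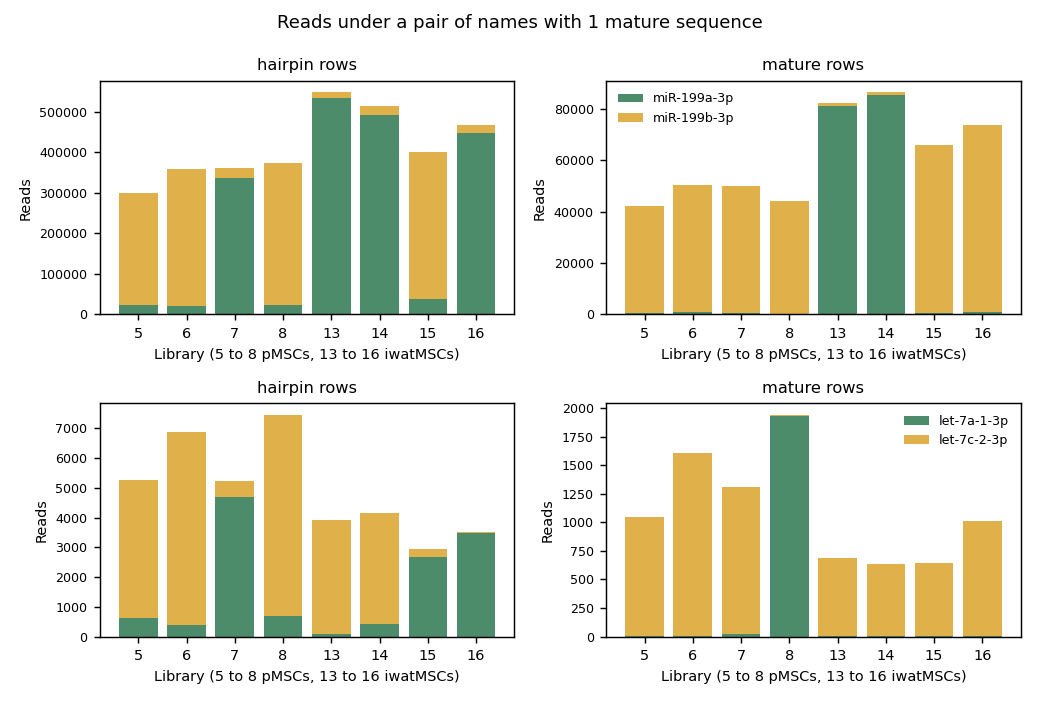
Reads in each library under the pairs of names with the same mature sequence, miR-199a-3p with miR-199b-3p (top) and let-7a-1-3p with let-7c-2-3p (bottom), in hairpin rows (left) and mature rows (right). The colours switch between libraries of 1 tissue, and they switch in different libraries on the left and on the right.

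Other members changed between libraries with no identical name found. The search covered only names matched in RefSeq, and miR-532-5p and miR-30d-5p, described below, were not among them. miR-3074-5p had 12, 32007, 7451 and 78 hairpin reads in pMSCs and 15, 21, 13 and 22 in iwatMSCs, and its mature row held 25 to 56 reads in every library. Its log2 fold change of 9.08 was not called (edgeR adjusted p = 0.157) and rests on libraries 6 and, with all 8, 7. The hairpin row of miR-24-3p, its antisense, stayed between 6574 and 12661 CPM. miR-378d held 3 and 7 reads in pMSCs libraries 5 and 7 and 796 to 1468 in the other 6.

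For miR-532-5p it was the mature row that moved, with 248, 48250, 328 and 111 reads in pMSCs and 39492 to 51867 in iwatMSCs, while the hairpin row held at most 5316. The hairpin row of miR-744-5p ranged from 786 to 9865 reads and its mature row from 74 to 7643, without a common order. Within a tissue, the highest hairpin read count was more than 10 times the lowest in 9 members, with a median of 1.77 times over all 200. In library 15 the hairpin row of miR-214-3p held 262860 reads against 41654 to 71405 in the other iwatMSCs libraries, and its mature row was high there too (182370 against 25691 to 42123). The hairpin row of miR-125b-5p held 287343 reads there against 79631 to 114497, and that of miR-30d-5p held 18995 against 5393 to 6072.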

How the data were processed

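Small RNA libraries with unique molecular identifiers were sequenced on the BGISEQ platform, and the sequencing company classified the reads. Per the labels Bowtie2 was used. Its version, the genome build and the miRNA release are not given in the sources used here. The deposited read counts per row and library are whole numbers, and whether identifiers were collapsed is not stated. The deposited score called TPM by the authors is never above the count, falls to between 2.79% and 4.40% of it for miR-21a-5p in the libraries other than 7, and is 1 for all 1023 hairpin rows with reads in library 7, so counts were used. The library left out by the study was identified by matching its tabulated TPM means (58 of 58 miRNAs, relative tolerance 2e-05).

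All row types entered the fit where the mean count of either tissue reached 1. The fit used edgeR 4.0.16 (TMM, quasi-likelihood F test, tissue only, R 4.3.3). The Benjamini-Hochberg method was applied over all rows. SEs are approximate, from dividing the fold change (log2) by the root of its F statistic. Ratios were tested as log2((hairpin + 0.5)/(mature + 0.5)) with limma 3.58.1 (trend, means of at least 10). Exact permutation tests used scipy 1.17.1 (Python 3.11.15). Both fits were tested on simulated data. There the edgeR fit missed all of the 2-fold changes and most of the 4-fold changes, so that a row that was not called is not shown to be unchanged. DESeq2 1.42.0, limma on log2 TPM, other filters and pseudocounts, and left-out libraries were alternatives.

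Members, lists and tests were chosen with earlier results of these data known. Named members are the 10 most abundant, up to 10 in each direction with the largest change among called rows without overlap, up to 8 in each direction by ratio, up to 5 of each list, the 5 highest and 5 lowest ratios, 3 ranks on each side of rank 200, hairpin rows of 8 miRNAs the study names, and members with hairpin and mature rows called in opposite directions (0). Members described for reads that switch between libraries were chosen after their values were seen. Sequences and coordinates are from RefSeq (GRCm38.p6), and host genes from GENCODE M21.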

Additional observations from a re-analysis of the deposited data

Results flagged for a closer look

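All 200 members were screened in each tissue. Among these 400 groups of 4 libraries, 29 had a library whose gap to its nearest neighbour exceeded Dixon's 95% critical value, where chance gives about 1 in 20 groups. Of the 29, 15 were in iwatMSCs library 15. CPM of hairpin rows are given.

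Library 15 was high in miR-199b-3p (15861 CPM against 602 to 936 in the other 3), miR-214-3p (11461 against 1865 to 2880), miR-30d-5p (828 against 231 to 251) and miR-152-3p (522.5 against 180.98 to 190.9). It was also high in miR-30a-5p (221.3 CPM), miR-329-3p (177 CPM), miR-532-3p (159 CPM), miR-324-3p (96.1 CPM), miR-186-5p (95.2 CPM) and miR-145a-5p (89.5 CPM against 34.1 to 37.7). The same held for miR-322-3p (67.9 CPM against 20.9 to 25.3), miR-30b-5p (62.3 CPM) and miR-455-3p (40.2 CPM). It was low in miR-100-5p (1590 CPM against 1981 to 2026) and miR-541-5p (325.6 CPM against 440.3 to 453). In the other iwatMSCs libraries, miR-155-5p was low in library 13 (390.4 CPM) and miR-100-3p high in library 14 (53.1 CPM).

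pMSCs library 7 was high in miR-199a-3p (15661 CPM against 816 to 1266), let-7a-1-3p (218 CPM), miR-1981-5p (99.1 CPM) and miR-1198-5p (73.5 CPM). It was low in miR-26a-5p (2928 CPM against 3614 to 3720), miR-199b-3p (1105 CPM against 13121 to 14716) and let-7c-2-3p (25.2 CPM, with 248 to 278 elsewhere). Among the other libraries of pMSCs, miR-212-3p was high in library 6 (370 CPM), miR-1839-5p in library 5 (86.9 CPM) and miR-129-5p in library 8 (103 CPM), and miR-28a-5p (248 CPM) and miR-322-5p (132.99 CPM) were low in library 8. The summed reads of miR-199a-3p and miR-199b-3p, which have the same mature sequence, ranged within a tissue by at most 1.37 times.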

How the results depend on the processing

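No paired analysis was possible because the tissues share no replicate numbers and no label links libraries to mice. The 13 higher and 10 lower members became 26 and 18 with DESeq2 and 6 and 6 with limma on log2(TPM + 1). With 1 library left out they ranged from 9 to 12 and from 7 to 10. Other alternatives, including limma on log2(TPM + 5) and summed identical names (chosen after seeing the data), stayed within 1.5 times. Apart from DESeq2 and all 8 libraries, the share of all rows called was not taken for these alternatives. Their counts are therefore a description alone. No called member changed sign, and 12 of the 23 stayed called throughout. 16 stayed called with any single library left out. let-7f-1-3p and let-7f-2-3p were lost without any of libraries 5, 6, 8, 13, 15 or 16, miR-455-5p without 5, 8, 13, 14, 15 or 16, miR-1247-5p without 6, 8, 14, 15 or 16, miR-221-3p without 5, 6, 8, 13 or 15, miR-34a-5p without 5, 6 or 16, and miR-15a-5p without 5 or 6. The cause was not tested.

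The ratio, with 0 called, gave 2 higher and 3 lower members with all 8 libraries and 1 and 2 with means of at least 100. With 1 library left out it gave 0 to 2 higher and 0 lower, the 2 without pMSCs library 6 being let-7k and miR-532-5p. Apart from all 8 libraries, the share of all pairs called was not taken here either. The difference of the hairpin share, 0.490 percentage points, reversed to -0.766 without iwatMSCs library 15 (chosen after seeing the data). With the reads of miR-21a-5p left out it did not reverse, at 0.729 with all 8 libraries and 0.655 without library 15. The alternative with the more abundant mature arm was not run, since hairpin rows are named by arm.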
